A study of Mus musculus with 62 samples.

Results

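This report describes 10 serotonin receptor genes, Htr1a, Htr1b, Htr1d, Htr2a, Htr2c, Htr3a, Htr4, Htr5a, Htr6 and Htr7, in RNA sequencing of mouse brain after ethanol. They were chosen by name from the 56415 genes of the deposited count table, and all 10 were found. Male C57BL/6J mice, 8 to 10 weeks old, received intraperitoneal ethanol at 2 g/kg as a 20% solution in saline. The acute paradigm was 1 injection and the chronic paradigm was 10, with 1 injection a day, and mice were killed 4 h after the last. Control mice of each paradigm received saline on the same schedule, so every group shares the handling and the injections, and each paradigm has its own saline group. The 62 libraries came from 16 mice, 4 for each paradigm and treatment, and covered cortex (CTX), dorsal and ventral hippocampus (dHPC and vHPC), and dorsal and ventral striatum (DS and VS), with 3 or 4 libraries in each group. Tissue was cored from frozen coronal slices, so each library is a mixture of cell types, and a change in the number of cells that express a receptor cannot be told apart from a change in its RNA per cell.

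Serotonin is made by neurons of the brainstem raphe, whose axons reach all of these regions, while the receptors are made by the cells that receive the signal. The Htr1 receptors and Htr5a couple to inhibitory G proteins, the Htr2 receptors couple to Gq and phospholipase C, and Htr4, Htr6 and Htr7 couple to Gs and raise cyclic AMP. Htr3a differs from the others, since it encodes a subunit of a cation channel opened directly by serotonin. In the brain Htr1a is known from pyramidal neurons of the hippocampus, Htr1b and Htr1d as receptors on axon terminals, Htr2a from cortical pyramidal neurons, and Htr2c from striatal neurons and, at very high levels, from the choroid plexus.

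CTX and dHPC were sequenced in another batch, with another library kit, than vHPC, DS and VS, so regions were compared within a batch only. Complete libraries held 43173748 to 71164766 counts in the first batch and 9689502 to 46564992 counts in the second. The deepest of the second batch was DS acute ethanol replicate 5, where the other acute DS libraries held 9689502 to 15342254 counts. The DS library of chronic saline replicate 2 held 8149628 counts and none on chromosomes 7, 8, 9, X or MT. Htr1b and Htr3a (chromosome 9) and Htr2c (chromosome X) could not be measured there, and that library was left out of the tests. Not every marker list followed the regions. The summed CPM (counts scaled to the normalized library size) of 12 striatal projection neuron markers was 3599 to 11738 over DS and VS libraries. Elsewhere it was 299 to 3608, so these ranges just overlapped. The dentate granule neuron list did not set the hippocampus apart, at 291 to 615 CPM in DS and 312 to 565 in VS. It was at 433 to 777 CPM in dHPC and 197 to 967 in vHPC. Of the serotonin neuron markers, Slc6a4, the serotonin transporter, was at 0 to 6 counts per library in saline mice of every region. The whole list summed to 8.22 to 11.8 CPM in DS saline libraries and 3.49 to 10.2 CPM in those of VS. In the saline libraries of the other regions it summed to 0.849 to 6.32 CPM, so Slc6a4 does not stand for the list.

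Levels of different genes are compared here as RPKM, which is CPM divided by exon length in kilobases. In saline mice no receptor exceeded a mean of 14.4 RPKM, and the receptor with the highest mean differed by region. Htr2a led in CTX with 6.42 ± 0.646 RPKM (SD, n = 6), Htr1a led in dHPC with 4.96 ± 0.938 RPKM (SD, n = 6) and in vHPC with 4.85 ± 1.01 RPKM (SD, n = 6). In vHPC Htr3a followed at 4.80 ± 2.34 RPKM (SD, n = 6), with a spread that takes in the mean of Htr1a. Htr1b led in DS with 14.4 ± 4.86 RPKM (SD, n = 5) and Htr2c in VS with 11.1 ± 3.38 RPKM (SD, n = 6). The next receptor in each striatal region was the other of these, since Htr2c reached 8.40 ± 2.75 RPKM (SD, n = 5) in DS and Htr1b 10.5 ± 1.90 RPKM (SD, n = 6) in VS, and in both regions the spreads of the pair overlapped. Htr1b and Htr2c together made up 38.3% and 22.4% of the summed mean RPKM of the 10 receptors in DS and 25.5% and 27.0% in VS. In CTX, which belongs to the other batch, the same 2 genes made up 7.25% and 3.08%. Within CTX the lowest levels were those of Htr4 and Htr1d, at 0.119 ± 0.0396 and 0.135 ± 0.0296 RPKM (SD, n = 6).

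**Figure D1:**
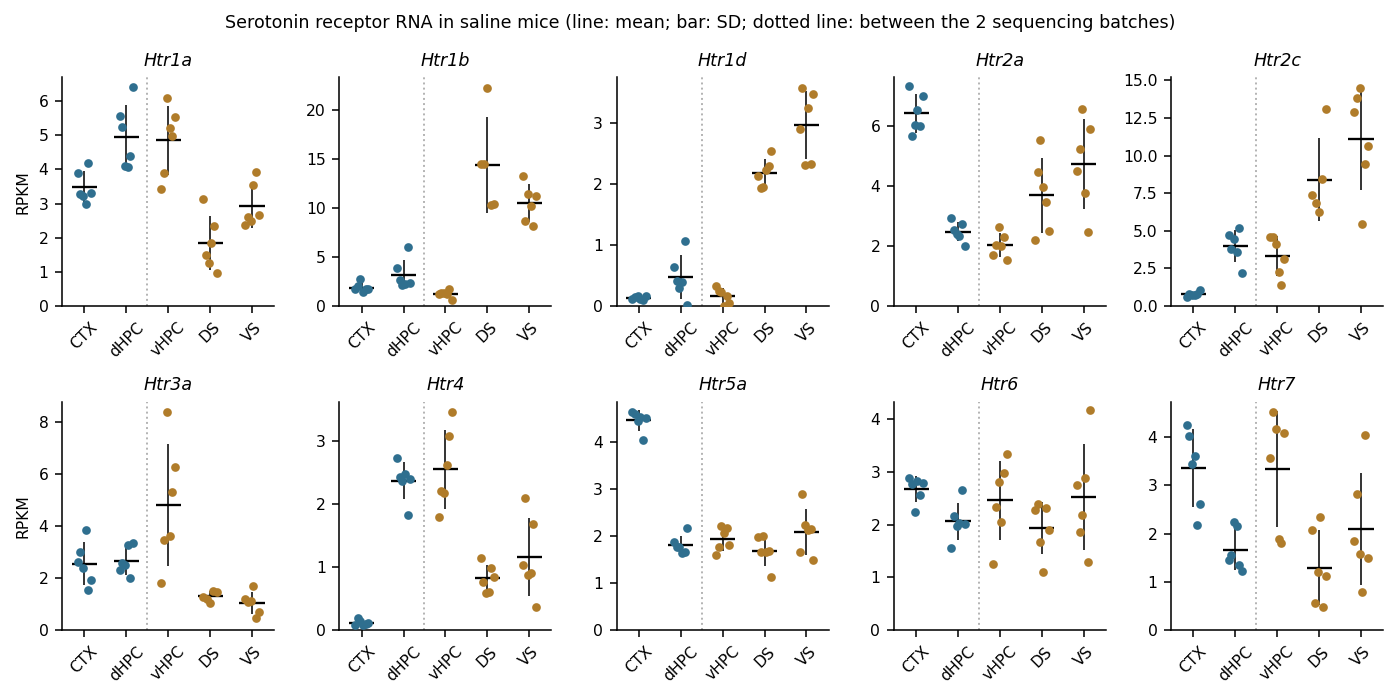
RPKM of the 10 receptors in the saline libraries of each region (6 per region, 5 in DS for Htr1b, Htr2c and Htr3a); points are libraries, horizontal lines are means, vertical bars are SD, and the dotted line separates the sequencing batches. Within the second batch Htr1b, Htr1d and Htr2c are higher in DS and VS than in vHPC, and within the first Htr4 is near 0 in CTX. The region means of Htr6 run from 1.94 to 2.68 RPKM over both batches.

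Between dHPC and CTX, 9 of the 10 receptors differed in saline mice at an edgeR false discovery rate (FDR) below 0.1, where 55.3% of all genes tested did. Htr4, a Gs-coupled receptor, had the largest difference. Its level was 0.411 to 0.912 CPM (median 0.533) in CTX and 8.95 to 13.4 CPM (median 11.9) in dHPC, so that the lowest dHPC library stood far above the highest CTX library (log2 fold change 4.32 ± 0.15 SE, edgeR FDR 3.97e-11). Htr2c was 5.52 to 10.2 CPM (median 7.14) in CTX and 20.3 to 48.2 CPM (median 38.2) in dHPC, again without overlap (log2 fold change 2.33 ± 0.19 SE, edgeR FDR 1.1e-07). Summed CPM of 12 markers of the choroid plexus, a tissue of the ventricles, was 217 to 400 in these CTX libraries and 250 to 5051 in those of dHPC, and its part in the Htr2c difference was not tested. Htr1d, Htr1b and Htr1a, of the inhibitory group, were also higher in dHPC, by 1.80, 0.79 and 0.52 on the log2 scale. The difference in Htr1d was lost when the mouse was held as a block (edgeR FDR 0.131), and its dHPC values ran from 0.0443 to 3.44 CPM. Only 4 mice had a saline library of both regions, so the block fit also rests on fewer libraries. Htr2a went the other way, at 31.7 to 41.1 CPM (median 35.2) in CTX and 11.3 to 16.4 CPM (median 13.8) in dHPC (log2 fold change -1.36 ± 0.09 SE, edgeR FDR 1.05e-08). Htr5a, Htr7 and Htr6 were lower in dHPC too, with log2 fold changes of -1.29, -0.98 and -0.37. For the channel subunit Htr3a the difference was 0.08 ± 0.20 SE on the log2 scale (edgeR FDR 0.781). The library kit of this batch does not keep the strand, and Htr1b, Htr3a and Htr5a each overlap a gene on the opposite strand whose reads could be counted with theirs.

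In the second batch 8 of 10 receptors differed between DS and vHPC, where 41.6% of genes did, and 7 of 10 between VS and vHPC, where 39.1% did. Both comparisons used the same vHPC libraries, and DS had 5 saline libraries without the incomplete one. The terminal receptors Htr1b and Htr1d set the striatum apart. Htr1b was 2.93 to 8.15 CPM (median 6.10) in vHPC, 48.7 to 105 CPM (median 68.5) in DS and 38.4 to 62.7 CPM (median 50.7) in VS. The log2 fold change of Htr1b was 3.46 ± 0.21 SE in DS (edgeR FDR 3.8e-08) and 3.08 ± 0.18 SE in VS (edgeR FDR 2.73e-08). Htr1d was 0 to 1.07 CPM (median 0.615) in vHPC against 6.17 to 8.14 CPM (median 6.99) in DS and 7.38 to 11.4 CPM (median 9.83) in VS. The DS levels of Htr1d take in the incomplete library, which has counts on its chromosome, while its fold change leaves that library out. No vHPC library reached the lowest striatal value of either gene, and the log2 fold changes of Htr1d were 3.66 ± 0.42 SE and 4.14 ± 0.39 SE (edgeR FDR 1.58e-05 and 1.62e-06). The Gq-coupled receptors were higher in the striatum as well. The log2 fold change of Htr2c was 1.36 in DS and 1.78 in VS, and that of Htr2a was 0.82 in DS and 1.22 in VS. The choroid plexus markers summed to 125 to 3738 CPM in the saline libraries of vHPC, 248 to 11554 in DS and 179 to 4638 in VS. Htr3a fell by 1.86 and 2.17 on the log2 scale from vHPC to DS and VS, Htr4 by 1.49 and 1.11, and Htr1a by 1.38 and 0.72. Htr7 was lower in DS (log2 fold change -1.70 ± 0.33 SE, edgeR FDR 0.00121). In VS it had a log2 fold change of -0.64 ± 0.34 SE (edgeR FDR 0.173), which became -1.12 with an edgeR FDR of 0.000505 when the mouse was held as a block. Htr5a and Htr6 were not called in either comparison, with log2 fold changes between -0.20 and 0.12.

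Between VS and DS none of the 10 receptors was called by edgeR, where 9.88% of genes were. An unadjusted p under 0.05 was reached by 4 of them, Htr1a, Htr1b, Htr1d and Htr7. Over all genes it was reached by 4383 of the 20665 tested. With the mouse held as a block 2 receptors were called, Htr1d (log2 fold change 0.50, edgeR FDR 0.0709) and Htr2a (log2 fold change 0.54, edgeR FDR 0.0743). Of all genes 2061 of 20665 were called with this block. DESeq2 called 3 of 10, namely Htr1b, Htr1d and Htr7, where it called 13.0% of genes. Whether these receptors differ between the striatal regions therefore depended on the test.

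After ethanol, edgeR called changes in 3 receptors, all of them in DS in the acute paradigm. There 3 of 10 receptors passed an edgeR FDR of 0.1, where 5.15% of all genes tested did, and DESeq2 called 3 of 10, where it called 6.40%. Htr1a (chromosome 13, 105580147 to 105584630 in GRCm39) had 14.1, 6.76 and 5.66 CPM in the saline libraries and 3.91, 2.42 and 4.89 CPM in the ethanol libraries. Every ethanol library was below every saline library, but one saline library stood well above the other two (log2 fold change -1.23 ± 0.34 SE, edgeR FDR 0.0734, DESeq2 FDR 0.0069). Htr1d (chromosome 4, 136150835 to 136171075) had 6.83, 6.17 and 6.25 CPM in saline and 12.4, 8.48 and 12.7 CPM after ethanol. Its saline libraries lay close together and all ethanol libraries were above them (log2 fold change 0.77 ± 0.19 SE, edgeR FDR 0.0462, DESeq2 FDR 0.018). Htr2c (chromosome X, 145745509 to 145980270) had 68.9, 63.6 and 58.2 CPM in saline and 81.3, 82.8 and 82.8 CPM after ethanol. This was the smallest and the most even of the called differences (log2 fold change 0.33 ± 0.08 SE, edgeR FDR 0.0348, DESeq2 FDR 0.00982).

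Among the other receptors of DS, the groups also did not overlap for Htr5a and Htr6. Htr5a was 10.6, 8.89 and 10.8 CPM in saline and 4.89, 8.62 and 7.90 CPM after ethanol (edgeR FDR 0.233). Htr6 was 5.32, 5.58 and 3.92 CPM in saline and 7.90, 7.61 and 5.89 CPM after ethanol (edgeR FDR 0.327). In all, 5 of 10 receptors had groups that did not overlap, where 22.4% of genes tested did. Htr1b, Htr2a, Htr3a, Htr4 and Htr7 overlapped between saline and ethanol in DS.

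The called changes of DS rested on few libraries and moved together with markers of cell types. Each call lost its place below 0.1 without some single library. Htr1a had a log2 fold change of -0.74 and an edgeR FDR of 0.312 without acute saline replicate 2, its high saline library. Htr1d stayed between 0.66 and 0.93 on the log2 scale whichever library was left out, with an edgeR FDR of up to 0.205, and Htr2c between 0.27 and 0.39, with an FDR of up to 0.118. Without acute ethanol replicate 5, by far the deepest of these libraries, Htr1a alone of the receptors was called. Without replicate 3 of that group it was Htr2c alone, and without replicate 4 Htr1d alone. Of all genes these fits called 581 of 19391, 691 of 20056 and 702 of 19802. The part of depth in the calls was not tested. When the 4 DS groups were fitted together, Htr1d alone of the receptors was called, as were 285 of the 20495 genes tested. The summed CPM of 12 striatal projection neuron markers was 7564 to 8970 in acute saline and 10272 to 10508 after acute ethanol. That of 9 pallial excitatory neuron markers was 1975 to 2304 in saline and 1449 to 1589 after ethanol. Neither pair of ranges overlapped, Htr1d and Htr2c moved in the direction of the striatal list and Htr1a in that of the pallial list. Of the 12 marker lists 4 were without overlap here. The others were the interneuron list, at 1355 to 1435 CPM in saline and 1543 to 1565 after ethanol, and the dentate granule list. The latter was at 331 to 449 and 512 to 615 CPM. In dHPC itself it summed to 433 to 777 CPM, so its name does not settle which cells it reads in DS. Neither list was shown to read cells apart from those of the striatal list. The choroid plexus list overlapped, at 248 to 607 CPM in saline and 306 to 1531 after ethanol. The part of cell mixture in these changes was not tested.

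**Figure D2:**
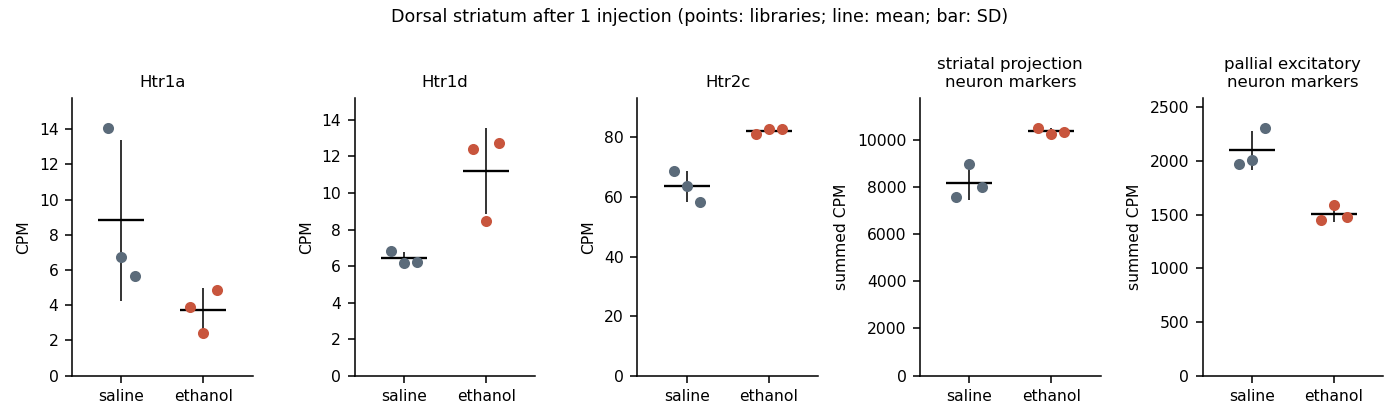
CPM of Htr1a, Htr1d and Htr2c, and summed CPM of the striatal projection neuron and pallial excitatory neuron marker lists, in the 3 saline and 3 acute ethanol libraries of DS; points are libraries, lines are means and bars are SD. Htr1a and the pallial list are lower after ethanol, and Htr1d, Htr2c and the striatal list are higher, with no overlap between the groups in any panel.

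In CTX acute ethanol gave no call by edgeR among the 10 receptors, where 1.99% of genes were called. An unadjusted p under 0.05 was reached by 5 of the receptors and by 3228 of the 25905 genes tested. DESeq2 called 3 of 10, where it called 3.69% of genes. Htr7 had 14.5, 13.7 and 11.7 CPM in saline and 10.9, 8.95 and 10.7 CPM after ethanol, with no overlap (log2 fold change -0.38 ± 0.11 SE, edgeR FDR 0.130, DESeq2 FDR 0.0398). Htr2a had 41.1, 31.7 and 33.7 CPM in saline and 43.9, 40.2 and 44.7 CPM after ethanol, where one ethanol library fell below the highest saline library (log2 fold change 0.28 ± 0.09 SE, edgeR FDR 0.188, DESeq2 FDR 0.0771). Htr2c had 5.52, 7.18 and 7.10 CPM in saline and 6.88, 10.7 and 9.36 CPM after ethanol, also with overlap (log2 fold change 0.45 ± 0.15 SE, edgeR FDR 0.229, DESeq2 FDR 0.0971). Groups did not overlap for 3 of 10 receptors, namely Htr3a, Htr6 and Htr7, all lower after ethanol, where 17.4% of genes tested did not. The summed CPM of the 10 myelin markers in these libraries was 2088 to 2351 in saline and 2443 to 3250 after ethanol. Another 5 of the 12 lists were without overlap, all lower after ethanol. Pallial excitatory neuron markers summed to 5778 to 6255 CPM in saline and 5544 to 5709 after ethanol, and striatal projection neuron markers to 490 to 572 and 452 to 469. The sums were 294 to 309 and 246 to 271 CPM for endothelial and mural cells and 278 to 298 and 270 to 273 for microglia. The dentate granule list was at 221 to 262 and 206 to 214 CPM. The names of the striatal and dentate granule lists do not settle which cells they read in CTX. The part of cell mixture in the receptor values was not tested.

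In vHPC edgeR called 0% of genes after acute ethanol, receptors included. An unadjusted p under 0.05 was reached by 4 receptors and by 2374 of the 19916 genes tested. DESeq2 called 2 of 10 receptors, where it called 2.90% of genes. Htr7, a Gs-coupled receptor, had 12.1, 15.3 and 14.1 CPM in saline and 5.24, 8.04 and 6.32 CPM after ethanol. The lowest saline library was well above the highest ethanol library (log2 fold change -1.10 ± 0.20 SE, edgeR FDR 0.176, DESeq2 FDR 0.000737). Htr2a had 9.46, 11.3 and 14.7 CPM in saline and 17.3, 17.7 and 19.7 CPM after ethanol (log2 fold change 0.61 ± 0.17 SE, edgeR FDR 0.257, DESeq2 FDR 0.0792). Htr4 and Htr1b were the other receptors without overlap, both higher after ethanol, which made 4 of 10 where 17.8% of genes tested did not overlap. Summed CPM of the 6 thalamic neuron markers was 137 to 719 in these saline libraries and 39.1 to 182 in the ethanol libraries, with overlap. The lists without overlap were 2 of 12, both higher after ethanol. Dentate granule neuron markers summed to 197 to 379 CPM in saline and 538 to 731 after ethanol, and microglia markers to 267 to 295 and 297 to 317. The part of cell mixture in the values of Htr1b, Htr2a, Htr4 and Htr7 was not tested. After chronic ethanol Htr7 in vHPC ranged from 2.90 to 10.4 CPM, which overlapped the 6.11 to 13.9 CPM of the chronic saline libraries.

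**Figure D3:**
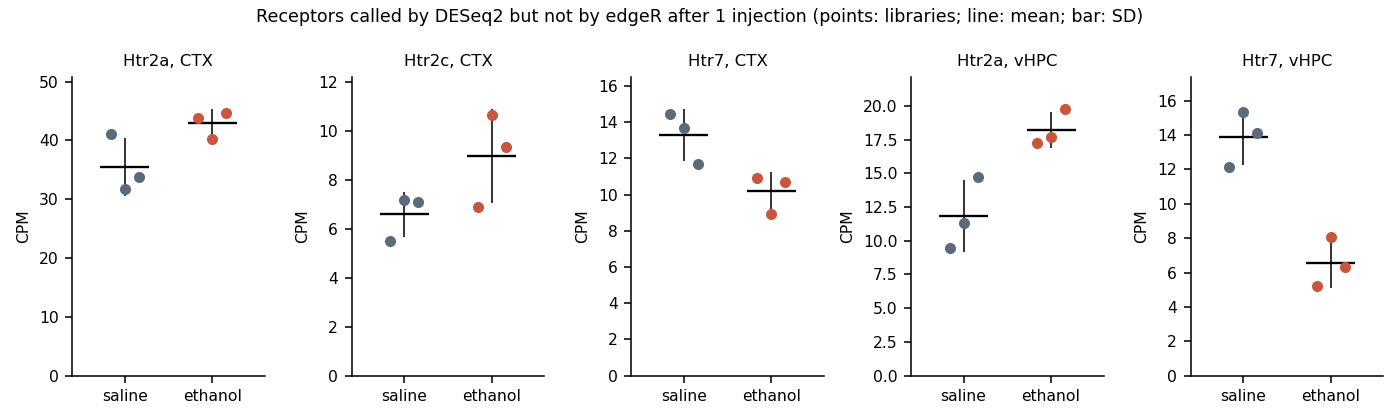
CPM in saline and acute ethanol libraries (3 each) of the receptors that DESeq2 called and edgeR did not: Htr2a, Htr2c and Htr7 in CTX, Htr2a and Htr7 in vHPC; points are libraries, lines are means and bars are SD. Htr7 is lower after ethanol in both regions without overlap, and Htr2a is higher, with overlap in CTX only.

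The other acute comparisons gave no call among the receptors by either tool. Of all genes DESeq2 called 281 of 26215 in dHPC and 178 of 20032 in VS. In dHPC, where edgeR called 0.0420% of genes, 1 receptor, Htr1d, had an unadjusted p under 0.05, as did 2065 of the 26215 genes tested. In VS, where it called 0.0399%, no receptor did, against 1466 of the 20032 genes tested. The log2 fold changes of the receptors in VS lay between -0.53 and 0.46. Chronic ethanol gave no call among the receptors in any region, by edgeR or by DESeq2. The share of all genes called by edgeR after chronic ethanol was 0.0555% in vHPC and 0% in CTX and the other 3 regions. DESeq2 called 214 of 19814 genes in vHPC, 223 of 25958 in dHPC and 364 of 20331 in VS. It called 156 of 25644 in CTX and 154 of 19844 in DS. An unadjusted edgeR p under 0.05 was reached by 4 receptors of dHPC, by 2 each of vHPC, DS and VS, and by 0 of CTX. Over all genes tested it was reached by 2136 of 25958 in dHPC, 1884 of 19814 in vHPC and 1495 of 19844 in DS. In VS it was reached by 2023 of 20331 genes and in CTX by 2656 of 25644. In VS Htr2c came closest under DESeq2, with 50.8, 87.8 and 99.4 CPM in saline and 110, 135 and 126 CPM after chronic ethanol (log2 fold change 0.64 ± 0.21 SE, edgeR FDR 0.382, DESeq2 FDR 0.101). The choroid plexus markers of these VS libraries were lower after ethanol, at 181 to 4638 CPM in saline and 139 to 171 after ethanol. Of the 12 marker lists 5 were without overlap here. The astrocyte list and the endothelial and mural list were lower too. The dentate granule list and that of CA1 and subiculum pyramidal neurons were higher, and their names do not settle which cells they read in VS. In dHPC Htr1a had 18.3, 19.7 and 28.8 CPM in saline and 32.7, 32.6 and 30.3 CPM after chronic ethanol (edgeR FDR 0.566, DESeq2 FDR 0.1002). Of the 12 marker lists 3 were without overlap in these libraries. Pallial excitatory neuron markers summed to 4621 to 6311 CPM in saline and 6442 to 6814 after ethanol. The dentate granule list was at 433 to 550 and 578 to 777 CPM, and the myelin list at 6931 to 7989 and 5494 to 6374. Htr3a in DS had 3.15 and 3.03 CPM in the saline libraries that hold its chromosome, and 1.77, 1.61, 0.998 and 1.42 CPM after chronic ethanol (log2 fold change -1.11 ± 0.37 SE, edgeR FDR 0.536). Besides Htr3a, the groups of chronic DS did not overlap for Htr1b and Htr1d, both higher after ethanol, where 17.3% of genes tested did not. The receptor values take in the incomplete library where it has counts on the chromosome, while the share of genes leaves it out. In chronic DS 6 of 12 marker lists were without overlap. Those of dentate granule neurons, interneurons, microglia and serotonin neurons were higher after ethanol, and those of myelin and pallial excitatory neurons lower. The names of the dentate granule and serotonin neuron lists do not settle which cells they read in DS. The part of cell mixture in the chronic values was not tested.

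**Figure D4:**
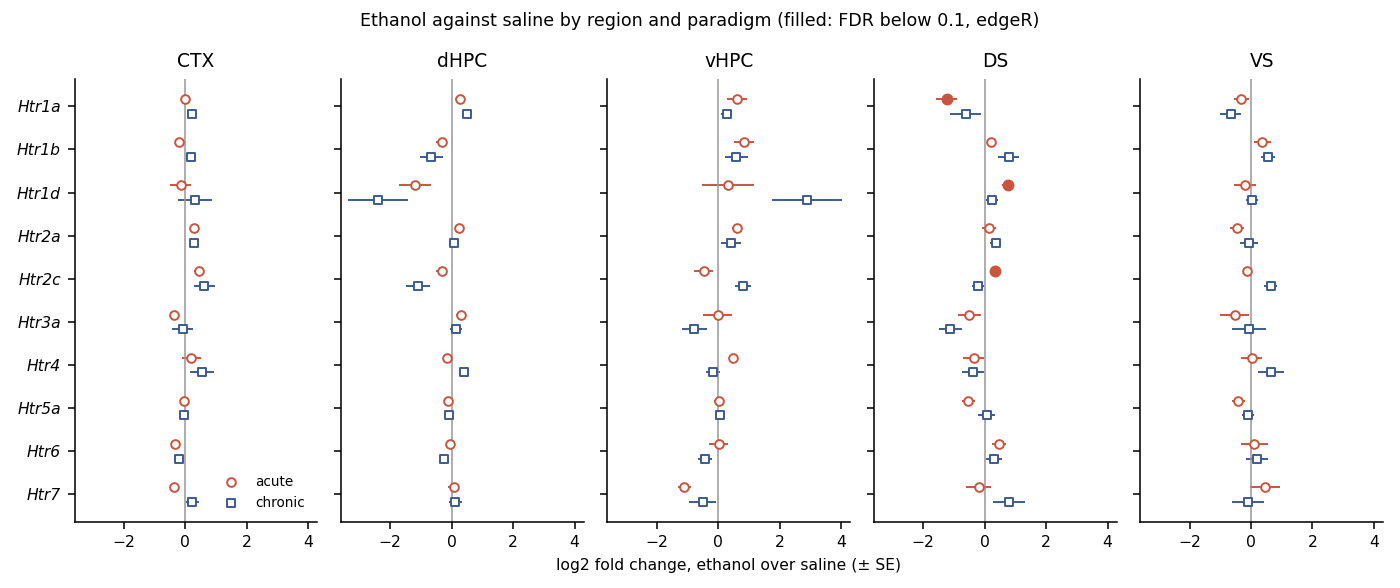
log2 fold change of each receptor, ethanol over saline, with SE, in each region after acute (circles) and chronic (squares) ethanol; filled symbols passed an edgeR FDR of 0.1. The filled symbols are Htr1a, Htr1d and Htr2c in DS after acute ethanol, and the widest error bars belong to Htr1d in dHPC and vHPC.

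The difference between the paradigms was tested in each region as the interaction of paradigm and treatment. None of the 10 receptors was called by edgeR or by DESeq2, and edgeR called 0% of genes in all of the 5 regions. DESeq2 called 417 of the 20618 genes tested in vHPC and 21 of 26540 in CTX. In dHPC it called 2 of 26850, in DS 4 of 21049 and in VS 4 of 20901. Between 1 and 2 receptors per region had an unadjusted edgeR p under 0.05. Over all genes tested 2174 of 26540 did in CTX, 1202 of 26850 in dHPC and 2381 of 20618 in vHPC. In DS 876 of 21049 did, and in VS 965 of 20901. In DS the interaction term was -0.54 ± 0.23 SE for Htr2c (edgeR FDR 0.973), one of the receptors called after acute ethanol. Its chronic saline group held only 2 libraries, with 78.7 and 122 CPM of Htr2c, and their choroid plexus markers summed to 3253 and 11554 CPM, against 248 to 607 in acute saline, 306 to 1531 after acute ethanol and 184 to 5305 after chronic ethanol. The part of choroid plexus in this term was not tested. In vHPC it was 1.29 ± 0.44 SE for Htr2c (edgeR FDR 0.332). For the other receptors called in acute DS, Htr1d in chronic DS was 7.16 to 8.14 CPM in saline and 8.52 to 9.85 after ethanol, without overlap. Htr1a there was 4.35 to 10.6 CPM in saline and 3.19 to 9.36 after ethanol, with overlap. These saline values take in the incomplete library. As no receptor interaction was called, the called changes of acute DS were not shown to differ from the changes in chronic DS.

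Htr1d and Htr2c varied widely between hippocampal libraries, and the libraries that stood apart also held markers of neighbouring tissue. Over the 25 libraries of dHPC and vHPC, Htr1d was highest in vHPC chronic ethanol replicate 5 (4.29 CPM), dHPC chronic saline replicate 5 (3.44 CPM), vHPC acute ethanol replicate 4 (2.68 CPM) and dHPC acute saline replicate 2 (2.06 CPM). The same 4 libraries had the highest summed CPM of striatal projection neuron markers, at 1957, 3608, 1649 and 1269, where the other hippocampal libraries had 299 to 968. In each region the 2 highest values of Htr1b were in these libraries as well, at 12.2 and 17.3 CPM in vHPC and at 28.5 and 18.5 CPM in dHPC. The largest fold changes of any receptor with ethanol were those of Htr1d here. They were -2.39 ± 0.98 SE on the log2 scale in dHPC and 2.89 ± 1.14 SE in vHPC after chronic ethanol, opposite in sign and both uncalled (edgeR FDR 0.587 and 0.483). Without dHPC chronic saline replicate 5 the first became -1.16, and without vHPC chronic ethanol replicate 5 the gene no longer passed the low-count filter in vHPC. After acute ethanol Htr1d in dHPC had a log2 fold change of -1.18 ± 0.52 SE (edgeR FDR 0.620). The part of neighbouring tissue in these values was not tested.

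In the hippocampus too the values of Htr2c were set beside those of the choroid plexus. In dHPC summed CPM of the choroid plexus markers ran from 169 to 5752. The 3 libraries with the lowest sums (169, 250 and 540 CPM) had the 3 lowest values of Htr2c, but not in the same order. The chronic saline library with a sum of 250 CPM had 20.3 CPM of Htr2c. The chronic ethanol libraries with sums of 169 and 540 CPM had the values 10.3 and 11.6 CPM, listed here by size and not by library. After chronic ethanol Htr2c had a log2 fold change of -1.10 ± 0.39 SE in dHPC (edgeR FDR 0.569) and 0.81 ± 0.25 SE in vHPC (edgeR FDR 0.406, DESeq2 FDR 0.113). In vHPC its values were 20.9, 12.7 and 29.4 CPM in chronic saline and 38.7, 42.9 and 29.8 CPM after chronic ethanol, without overlap. The choroid plexus markers of those libraries summed to 125 to 437 CPM in saline and 1519 to 4864 CPM after ethanol. The order was not the same in every library, since vHPC acute saline replicate 6 had 38.2 CPM of Htr2c with a marker sum of 216 CPM. The part of choroid plexus in the Htr2c values was not tested.

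**Figure D5:**
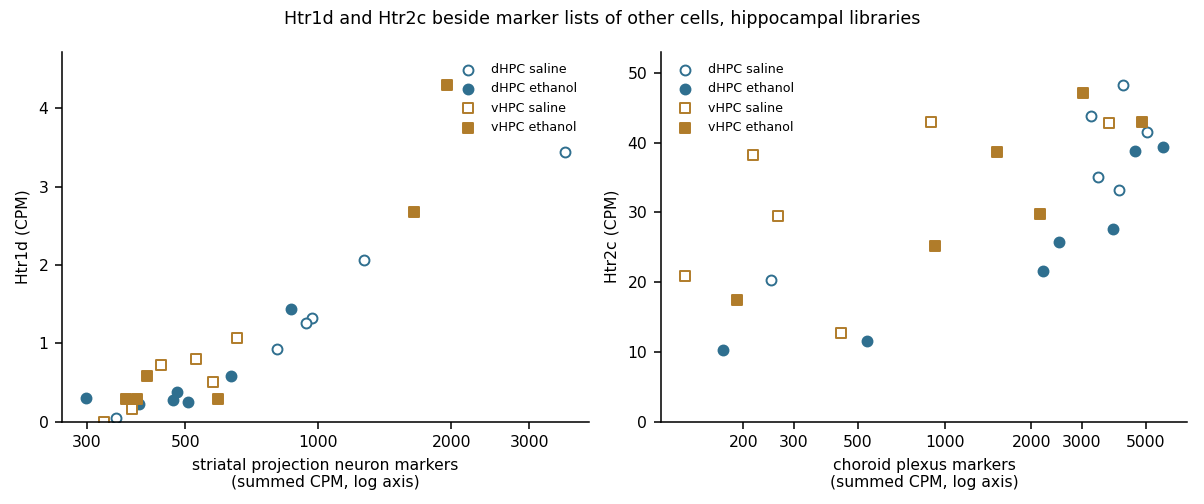
CPM of Htr1d against summed CPM of striatal projection neuron markers, and CPM of Htr2c against summed CPM of choroid plexus markers, in the 25 dHPC and vHPC libraries (horizontal axes are logarithmic; open symbols saline, filled symbols ethanol). The 4 libraries with the most striatal marker RNA have the highest Htr1d, and the 3 dHPC libraries with the least choroid plexus marker RNA have the lowest Htr2c of dHPC.

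Of 47 other genes of serotonin signalling, 13 were called in some ethanol comparison, with 14 calls in all, of which 13 were in DS after acute ethanol, where 5.15% of all genes were called. In the list of G proteins and effectors 3 of 25 were higher and 8 of 25 lower in DS, where 2.05% and 3.10% of all genes were, with a median log2 fold change of -0.07, against 0.00 over all genes. The potassium channel subunits that inhibitory receptors such as Htr1a open were lower together, with log2 fold changes of -0.94 for Kcnj3 (edgeR FDR 0.00049), -0.73 for Kcnj9 (edgeR FDR 0.000799) and -1.30 for Kcnj6 (edgeR FDR 0.0114). The adenylyl cyclases, which make cyclic AMP, went both ways. Adcy1, Adcy2 and Adcy8 were lower, with log2 fold changes of -0.70, -0.49 and -1.06 (edgeR FDR 0.000587, 0.0155 and 0.0216). Adcy5, the main cyclase of striatal neurons, and Adcy9 were higher, with log2 fold changes of 0.37 and 0.38 (edgeR FDR 0.0053 and 0.0339), as was Gnal, the Gs-type alpha subunit of striatal neurons (log2 fold change 0.22, edgeR FDR 0.0805). Gnas, the Gs alpha subunit, had a log2 fold change of -0.57, and Plcb4, a phospholipase C, one of -0.45 (edgeR FDR 0.00713 and 0.0101). Adcy5 is also one of the 12 striatal projection neuron markers, and the marker sums given above for the same DS libraries stand beside all of these values, their part being untested. Among receptor partners and editing enzymes 2 of 9 were called, Grk2 and S100a10, both lower in DS after acute ethanol, where 5.15% of all genes were called. Of the genes for serotonin synthesis, transport and breakdown none was called in any of the 10 ethanol comparisons, and 7 of 9 were tested in DS after acute ethanol. Adcy8 was called a second time, in CTX after acute ethanol, where 1.99% of genes were called, and it was lower there as well (log2 fold change -0.43, edgeR FDR 0.034).

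The 4 serotonin receptors outside the group of 10 were low or regional. Htr1f, an inhibitory receptor, had a mean of 0.811 to 1.19 RPKM over the regions in saline mice. Htr5b reached 2.36 ± 0.434 RPKM in dHPC and 0.241 ± 0.0579 RPKM in CTX (SD, n = 6), a log2 difference of 3.31 ± 0.14 SE (edgeR FDR 2.16e-10). Htr2b and Htr3b did not exceed a mean of 0.104 and 0.0191 RPKM, and none of the 4 was called with ethanol.

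Likeness between genes was described by Pearson's r of log2(CPM + 1) after subtraction of each region's mean, over 61 libraries and 18018 genes, where the points share their library, depth and cell mixture. The closest match of any receptor was that of Htr1d with Ppp1r1b, a striatal projection neuron marker (r = 0.88), followed by Rarb and Cd4 (both r = 0.86). Htr1b was closest to Tmem158, Ric8b and Tlnrd1 (r = 0.81, 0.80 and 0.80). Htr1a was closest to Wdr1, Sertm1 and Prr36 (r = 0.75, 0.74 and 0.74), and Htr7 to Magel2, Slc6a11 and Frem3 (r = 0.75, 0.75 and 0.72). Htr2c was closest to Vat1l, Six3os1 and Acaa2 (r = 0.73, 0.70 and 0.68), and Htr6 to Scmh1, Adamts3 and Fam171a1 (r = 0.73, 0.71 and 0.71). For Htr3a the genes were Npcd, Sh3rf1 and Nell2 (r = 0.72, 0.71 and 0.71), and for Htr5a they were Rspo3, Kcnc4 and Syt17 (r = 0.71, 0.69 and 0.65). Htr4 and Htr2a had the loosest matches, Htr4 with Galns, Hcls1 and Vstm2a (r = 0.64, 0.62 and 0.60) and Htr2a with Gm35040, Npy and Inpp4a (r = 0.62, 0.59 and 0.57).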

How the data were processed

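The deposited gene table holds raw counts of reads per gene. Per the labels, the authors trimmed reads with cutadapt (version 5.0), aligned them to GRCm39 with STAR (2.7.10a) and counted them with featureCounts (2.0.6). All libraries were counted as reverse-stranded, also those of CTX and dHPC, whose kit does not mark strand. Of counts from 1 to 19, 68.7% in the first batch and 88.9% in the second were even, so both mates of a pair appear to have been counted, and counts overstate the number of fragments. A deposited transcript table counted reads toward every isoform they overlap, so isoforms are not reported.

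CPM used TMM factors over all 62 libraries, and RPKM the deposited exon length. Each comparison was fitted over all genes with edgeR (4.0.16) quasi-likelihood tests, after a filter of at least 5 counts in at least 2 libraries of a group. Calls were made at a Benjamini-Hochberg FDR below 0.1, the cutoff of the study's methods. Ethanol comparisons used the 2 groups compared, interactions all 4 groups of a region, and region comparisons saline libraries with paradigm as a covariate. SE is the log2 fold change divided by the square root of F. DESeq2 (1.42.0), the study's tool, other normalization, filters and blocks, and leaving out each library were alternatives. Scripts were tested on simulated data.

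Replicate numbers were read as mouse numbers, because they give 16 mice, as the study's methods do. The labels do not state this, so the mouse blocks rest on that reading. In region comparisons libraries with the same number and paradigm were taken to share a mouse. Only such pairs inform a mouse block, 4 of them in dHPC against CTX and 5 in each of the other region comparisons. The deviations of such pairs from their group means correlated with r from -0.0916 to 0.324. For pairs with different numbers r ran from -0.324 to 0.255. The ends 0.324 and -0.324 are the same value with its sign changed, since the 2 complete libraries of DS chronic saline have mirrored deviations. Median r for equal and different numbers was 0.0688 and -0.0421 in dHPC against CTX and 0.0318 and 0.0101 in DS against vHPC. It was -0.00275 and -0.0323 in VS against vHPC and 0.137 and -0.0542 in VS against DS. The ranges overlap and their ends are partly fixed in this way, so they do not settle whether equal numbers are the same mouse. In ethanol comparisons equal numbers were taken as different mice. The text names all 10 receptors, up to 8 called pathway genes, the other serotonin receptors, and the 3 genes most alike to each receptor, and Adcy8, Adcy9, Gnal, Grk2 and S100a10 were added after their values were seen. The receptors and gene lists were chosen with earlier results of these data known.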

Additional observations from a re-analysis of the deposited data

Results flagged for a closer look

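Among groups of 4 libraries, 20 sets of receptor values were checked for a library that stands far from the others, and 4 did, where chance gives about 1 in 20. In DS after chronic ethanol, Htr1a was 9.36 CPM in one library and 3.19 to 3.84 CPM in the others. In the same group Htr6 was 8.04 CPM in one library and 5.43 to 5.86 CPM in the others. In dHPC after acute ethanol, Htr1b was 12.5 CPM in one library and 10.2 to 10.5 CPM in the others. Htr7 in that group was 7.65 CPM in one library and 5.55 to 5.91 CPM in the others. These values carry no test.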

How the results depend on the processing

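Without a low-count filter, receptors called numbered 3 in acute CTX, 1 in acute vHPC, 2 in chronic vHPC, 1 in chronic DS and 2 in chronic VS. They numbered 5 in VS against DS, and 1, 2 and 1 in the interactions of vHPC, DS and VS. The main count was 0 in each. Of all genes, the unfiltered fits called 1488 of 37549 in acute CTX, 263 of 29858 in acute vHPC and 790 of 29649 in chronic vHPC. They called 475 of 29674 in chronic DS, 569 of 30319 in chronic VS and 2945 of 32251 in VS against DS. In the interactions they called 868 of 32149 in vHPC, 235 of 32790 in DS and 195 of 32664 in VS. With DESeq2 the receptors called numbered 3 in acute CTX, 2 in acute vHPC and 3 in VS against DS. Of all genes it called 3.69%, 2.90% and 13.0% there. With a replicate block, equal numbers taken as pairs, 2 receptors were called in acute CTX and 1, Htr2c, in chronic CTX. With the mouse as replicate block 2 were called in VS against DS. Of all genes these fits called 789 of 25905, 143 of 25644 and 2061 of 20665. The ethanol groups share no mice, so the block of the CTX fits is not a true pairing. With all 4 groups in 1 fit, acute DS kept 1 call of 3. Leaving out each library gave 0 to 1 receptor calls in acute CTX and 0 to 2 in acute vHPC. It gave 1 to 2 in acute DS and 0 to 1 in VS against DS. Of all genes it gave 42 to 794, 0 to 301, 581 to 1088 and 844 to 2303 calls there. It moved the log2 fold change of Htr3a between dHPC and CTX from -0.055 to 0.26 and that of Htr6 between VS and vHPC from -0.12 to 0.22. With the incomplete DS library kept, the DS interaction of Htr2c was 0.049, as a count of 0 entered for a missing chromosome. The total of genes called was 1056 in acute DS, 285 with all groups in 1 fit and 1798 unfiltered, 515, 0 and 1488 in acute CTX, and in acute vHPC 0, against 578 with DESeq2. At these depths the SE of the log2 fold change of Htr1d after chronic ethanol was 0.98 in dHPC and 1.14 in vHPC.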
